A study of Mus musculus with 6 samples.

Results

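Input libraries of a CUT&RUN series from mouse skeletal muscle were compared between a conditional knockout of Phf2 and its control. They comprised 1 knockout input with 10931 peaks and 2 control inputs with 3071 and 1309 peaks, together 15311 of the 48419 peaks in the 6 lists of the series. All peaks of the 3 input lists on chromosomes 1 to 19, X and Y were members, and peaks of different lists were called shared where they overlapped by 1 bp or more. Knockout mice (CKO) were Phf2 flox/flox;Acta1 Cre+ and control mice (Ctrl) were Phf2 flox/flox;Acta1 Cre-, so the Ctrl mice carried the floxed alleles too. All were male C57BL/6 mice aged 4 weeks, and the tissue was gastrocnemius muscle. The Acta1 promoter drives Cre in skeletal muscle fibres, whereas the whole muscle also holds vessels, nerve, connective tissue and satellite cells. The other lists served as readouts that had no part in choosing the input peaks, namely H3K9me2 in CKO (12832 peaks), H3K9me2 in Ctrl (3703) and H3K4me3 in Ctrl (16573), the last from a library titled wild type whose genotype label is that of Ctrl.

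The labels do not say how the inputs were prepared. They give the same sentence on overnight antibody incubation for all 6 libraries, inputs included, and name no antibody. They also leave unsaid whether the libraries came from separate animals and whether an input was used as control when peaks were called. With 1 CKO input there is no replicate of the knockout, so no test between genotypes was made, and the difference between the Ctrl inputs is given as the only spread between libraries of 1 genotype.

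In CUT&RUN a nuclease fused to protein A and protein G is brought to chromatin by an antibody and cuts the DNA around the bound protein. DNA that is cut or released without a bound antibody comes preferentially from accessible chromatin, and promoters rich in CpG dinucleotides, which carry H3K4me3 when active, are among the most accessible sites of the genome. PHF2, a member of the JmjC family, is known as an eraser of H3K9me2, which marks repressed chromatin, and reads H3K4me3 through its PHD finger.

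The promoters below carry the patterns described in the following paragraphs. The first 3 held a peak in all 3 inputs and the last 3 in the CKO input alone. They are the highest of each kind by fold in the CKO input among genes whose CKO peak overlaps their sequence in the RefSeq promoter table of GRCm38.p6, the assembly on which mm10 is based. Brox, which was higher, is not shown because its peak lies upstream of that sequence, and Add2, which had the same fold as Figla, is not shown either. Each runs 5′ to 3′ on the gene's strand from 250 bases before the annotated start to 50 bases after it, with every CG dinucleotide in capitals.
Vmn2r29, chr7:7278240-7278539, minus strand: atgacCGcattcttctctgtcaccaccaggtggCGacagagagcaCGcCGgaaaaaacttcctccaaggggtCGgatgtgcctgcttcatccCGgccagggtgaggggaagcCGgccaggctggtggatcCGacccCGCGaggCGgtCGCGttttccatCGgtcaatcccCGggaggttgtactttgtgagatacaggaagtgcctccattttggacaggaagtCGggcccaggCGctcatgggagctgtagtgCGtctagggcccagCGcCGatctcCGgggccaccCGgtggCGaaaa
Tmem267, chr13:119488223-119488522, plus strand: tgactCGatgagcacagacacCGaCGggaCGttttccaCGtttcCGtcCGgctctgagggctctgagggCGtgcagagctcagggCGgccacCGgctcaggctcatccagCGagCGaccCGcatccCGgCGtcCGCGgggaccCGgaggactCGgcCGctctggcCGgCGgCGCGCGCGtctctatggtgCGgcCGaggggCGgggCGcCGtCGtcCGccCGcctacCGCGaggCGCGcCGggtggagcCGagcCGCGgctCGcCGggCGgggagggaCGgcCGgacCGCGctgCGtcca
Lta4h, chr10:93453146-93453445, plus strand: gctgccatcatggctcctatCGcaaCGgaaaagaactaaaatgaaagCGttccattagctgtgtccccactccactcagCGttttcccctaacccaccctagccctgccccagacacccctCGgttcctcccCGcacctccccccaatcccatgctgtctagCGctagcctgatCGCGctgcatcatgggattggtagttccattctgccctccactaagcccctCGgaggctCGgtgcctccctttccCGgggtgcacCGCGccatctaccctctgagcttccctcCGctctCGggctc
Gtsf1, chr15:103430378-103430677, minus strand: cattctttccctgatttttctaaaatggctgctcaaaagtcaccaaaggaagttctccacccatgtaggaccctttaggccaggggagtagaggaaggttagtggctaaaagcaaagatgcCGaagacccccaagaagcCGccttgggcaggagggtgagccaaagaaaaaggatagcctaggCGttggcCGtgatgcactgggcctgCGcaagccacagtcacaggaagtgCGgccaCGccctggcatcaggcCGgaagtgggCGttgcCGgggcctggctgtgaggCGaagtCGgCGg
0610040J01Rik, chr5:63812245-63812544, plus strand: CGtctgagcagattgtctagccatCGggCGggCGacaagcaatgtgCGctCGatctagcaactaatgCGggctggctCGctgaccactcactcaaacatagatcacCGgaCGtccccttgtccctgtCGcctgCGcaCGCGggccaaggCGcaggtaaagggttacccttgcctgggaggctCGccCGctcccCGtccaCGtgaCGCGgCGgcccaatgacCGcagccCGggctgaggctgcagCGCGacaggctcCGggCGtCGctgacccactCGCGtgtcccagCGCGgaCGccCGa
Figla, chr6:86016941-86017240, plus strand: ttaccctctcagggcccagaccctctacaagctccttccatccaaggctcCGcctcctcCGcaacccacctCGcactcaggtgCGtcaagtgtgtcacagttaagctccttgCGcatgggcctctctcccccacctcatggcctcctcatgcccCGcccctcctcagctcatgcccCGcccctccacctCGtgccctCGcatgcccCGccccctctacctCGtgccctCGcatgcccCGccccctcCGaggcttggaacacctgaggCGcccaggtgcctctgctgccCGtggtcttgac

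These promoters differed widely in CG content. Tmem267 had 50 CG dinucleotides in its 300 bases and a CpG observed over expected ratio of 1.16, and 0610040J01Rik had 35 and a ratio of 1.03. Vmn2r29 (23 CG, ratio 0.793), Lta4h (16, 0.661), Figla (16, 0.573) and Gtsf1 (13, 0.531) were poorer in CG. Gtsf1 and Figla, both genes of germ cells, had no H3K4me3 peak in Ctrl muscle, while the other 4 promoters did.

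The CKO input yielded a far longer peak list than either Ctrl input, at a depth that was only moderately higher. Its list was 3.56 times the length of that of Ctrl input 1 and 8.35 times the length of that of Ctrl input 2, whereas the lists of Ctrl inputs 1 and 2 differed by 2.35 times. Background coverage, read from the lowest local background among a list's peaks, was 0.371 fragments per position in the CKO input against 0.294 and 0.292 in Ctrl inputs 1 and 2. The single peaks were alike in size in the 3 lists. The fold is the authors' own ratio of summit to local background with 1 added to each. Where the background is under 1 fragment, it is set mainly by the summit fragments and so moves with depth. The median fold was 5.11 in CKO against 4.99 and 4.94 in Ctrl. The median summit held 7 fragments in CKO against 6 in each Ctrl input, and the median width was 398 bp against 370 and 363 bp. The lowest called summit held 4 fragments in each list, so a single input peak is a small count. Whether the length of the CKO list comes from the genotype, the depth or the handling of 1 library was not tested and, with 1 CKO input, cannot be told apart.

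Most CKO input peaks were absent from both Ctrl inputs, but the Ctrl inputs also shared few peaks with each other. Of the CKO peaks, 9109 (83.3%) were in neither Ctrl list, 1182 were in Ctrl input 1 alone, 408 in Ctrl input 2 alone and 232 in both. Ctrl input 1 had 304 of its 3071 peaks in Ctrl input 2. When each list was cut to its 1309 most significant peaks, 17.0% of CKO peaks were in Ctrl input 1 (exact 95% binomial interval 15 to 19.2) and 14.8% were in Ctrl input 2 (12.9 to 16.9). Ctrl input 1 then had 15.4% of its peaks in Ctrl input 2 (13.5 to 17.5). At equal length the CKO input thus overlapped each Ctrl input about as much as the Ctrl inputs overlapped each other, with intervals that overlap. The cut lists were not alike in summit height, however. The lowest summit kept held 8 fragments in CKO, 6 in Ctrl input 1 and 4 in Ctrl input 2, whose list was kept whole.

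Recurrence depended on the number of fragments at the summit. CKO peaks with 4 to 5 summit fragments were found in Ctrl input 1 in 7.43% of cases and in Ctrl input 2 in 3.22%. CKO peaks with 12 to 15 fragments recurred in 19.3% and 10.2%. The 168 CKO peaks with at least 16 fragments recurred in 75.6% (68.4 to 81.9) and 62.5% (54.7 to 69.8). A high summit was thus mostly shared between genotypes and a low summit mostly was not. The Ctrl inputs followed the same order, since 93.0% of the 115 highest peaks of Ctrl input 1 were in the CKO input and 76.5% in Ctrl input 2. Of the 93 highest peaks of Ctrl input 2, 95.7% were in the CKO input and 93.5% in Ctrl input 1. At 4 to 5 fragments, 35.5% of Ctrl input 1 peaks and 37.2% of Ctrl input 2 peaks were in the longer CKO list.

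**Figure D1:**
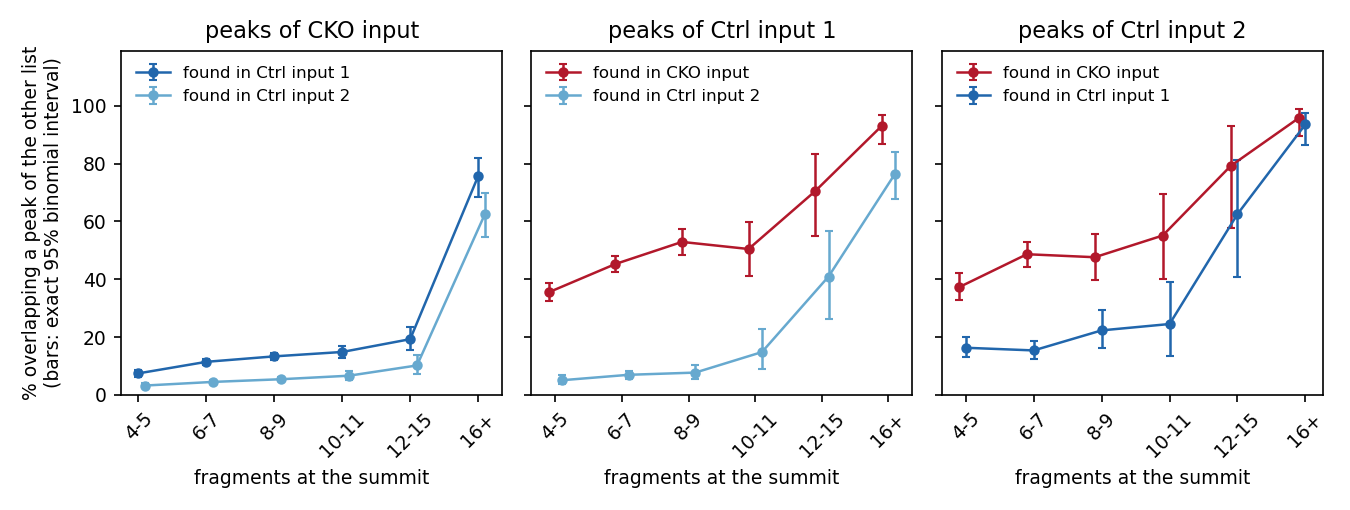
Share of input peaks that overlap a peak of another input list (vertical axis, percent) by the number of fragments at the summit (horizontal axis), in a panel each for the peaks of the CKO input, Ctrl input 1 and Ctrl input 2; points are shares and bars exact 95% binomial intervals. In the CKO panel the shares climb from 7.43% and 3.22% at 4 to 5 fragments to 75.6% and 62.5% at 16 or more.

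At regions called in both lists of a pair, folds differed little. Over 1414 regions shared by the CKO input and Ctrl input 1 the median fold was 5.47 in CKO and 5.11 in Ctrl, a median log2 ratio of 0.08, and the fold was higher in CKO in 59.9% of them. Over 641 pairs with Ctrl input 2 the medians were 5.58 in CKO and 5.10 in Ctrl, a median log2 ratio of 0.12, and 65.5% were higher in CKO. The Ctrl inputs differed from each other by a median log2 ratio of 0.02 (input 1 over input 2, 305 pairs), with 55.4% higher in input 1. These values cover called regions only, and the folds were not scaled to equal coverage. The CKO peaks found in no Ctrl input had a median of 7 summit fragments, equal to 5.54 and 5.52 at the coverage of Ctrl inputs 1 and 2. So scaled, 3899 of them (42.8%) would reach 6 fragments, the median of called peaks in either Ctrl input, and 1626 would lie under 4, the lowest summit called there. These peaks were called in CKO, which favours high summits there, and the part of depth in their absence from the Ctrl lists was not tested.

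In both genotypes gene ends held more input peaks than gene bodies or intergenic sequence, and most peaks there coincided with H3K4me3. Of CKO input peaks centred within 2 kb of a gene end, 87.3% overlapped an H3K4me3 peak, against 87.4% and 91.0% in Ctrl inputs 1 and 2. Peaks in gene bodies did so in 26.5% of cases in CKO and in 24.5% and 32.2% in Ctrl, and intergenic peaks in 9.97% in CKO and 11.7% and 16.1% in Ctrl. H3K9me2 had the opposite order. Intergenic input peaks overlapped a CKO H3K9me2 peak in 36.5% of cases in CKO and in 45.2% and 46.5% in Ctrl, while peaks at gene ends did so in 17.5% in CKO and 23.0% and 21.1% in Ctrl.

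The peaks found in 1 genotype differed from the shared ones in position and marks. CKO peaks found in no Ctrl input were at a gene end in 44.9% of cases (43.9 to 45.9), against 35.5% of Ctrl input 1 peaks (33.2 to 37.9) and 37.2% of Ctrl input 2 peaks (33.5 to 41.0) that were not in CKO. CKO peaks with a Ctrl counterpart were at a gene end in 56.9% (54.5 to 59.1). H3K4me3 followed the same order, with 47.3% of the CKO peaks found in no Ctrl input, 35.4% and 40.2% of the Ctrl input 1 and 2 peaks not in CKO, and 63.8% of the CKO peaks with a Ctrl counterpart. Of the 232 CKO peaks present in both Ctrl inputs, 67.2% overlapped a CKO H3K9me2 peak (60.8 to 73.2), against 20.1% of CKO peaks in no Ctrl input and 22.9% and 19.3% of Ctrl input 1 and 2 peaks not in CKO. Of the same 232 peaks 41.8% were intergenic (35.4 to 48.4), against 30.6% of the CKO peaks in no Ctrl input, but close to the 40.1% and 38.0% of Ctrl input 1 and 2 peaks not in CKO. A Ctrl H3K9me2 peak lay on 40.1% of the 232 and on 6.03% of the CKO peaks in no Ctrl input.

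At the level of genes, the CKO input marked the promoters of 5698 of 21887 protein-coding genes (26%), against 1534 (7.01%) in Ctrl input 1 and 708 (3.23%) in Ctrl input 2. A gene counted where a peak lay within 2 kb of its annotated start (17492 genes) or, where the promoter table gave no start, within 2 kb of either gene end (4395 genes). A promoter peak in CKO and in no Ctrl input was found for 4426 genes (20.2%), and one in a Ctrl input but not in CKO for 797 (3.64%). The Ctrl inputs differed from each other at 1361 genes marked in input 1 and not in 2 (6.22%) and 535 marked in input 2 and not in 1 (2.44%). All 3 inputs marked 125 genes (0.571%). At 1309 peaks each, there were 687 genes in CKO against 599 and 708 in Ctrl inputs 1 and 2. Cutting the lists to 1 length brings such counts together by construction, so their closeness is not a result. At that length CKO and Ctrl input 1 shared 65 genes (9.46% of the CKO genes, 10.9% of the Ctrl genes), CKO and Ctrl input 2 shared 76 (11.1% and 10.7%), and Ctrl inputs 1 and 2 shared 83 (13.9% and 11.7%). Some promoter peaks served more than 1 gene, namely 561 of 5251 (10.7%) in CKO, against 148 of 1391 (10.6%) and 73 of 634 (11.5%) in Ctrl, and the gene such a peak belongs to is uncertain.

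**Figure D2:**
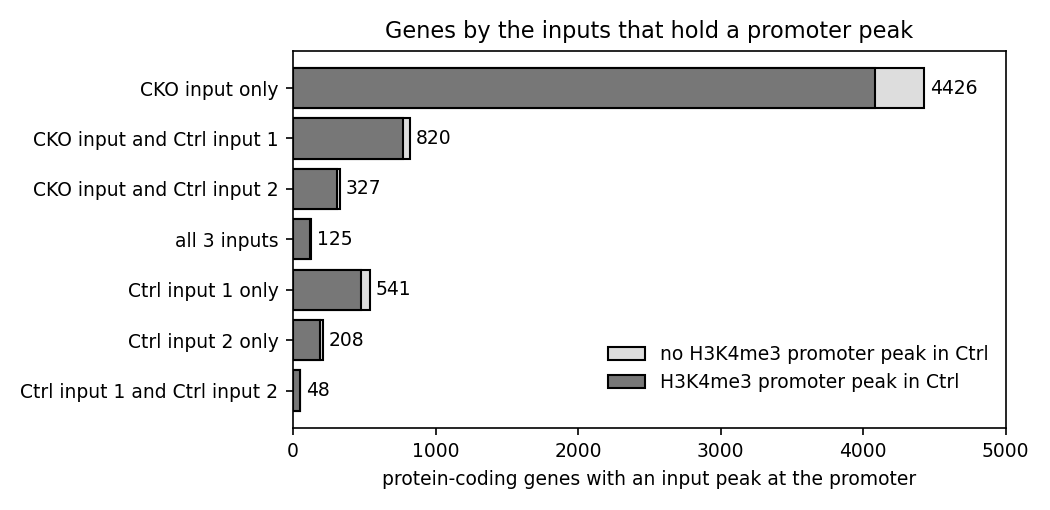
Number of protein-coding genes (horizontal axis) by the input libraries that hold a peak at their promoter; the dark part of each bar is genes with an H3K4me3 promoter peak in Ctrl and the light part those without. The CKO input only class holds 4426 genes, the all 3 inputs class 125 and the classes of Ctrl inputs alone 541, 208 and 48.

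Whichever input marked them, the genes were nearly all H3K4me3 genes. An H3K4me3 promoter peak was present at 92.2% of genes marked in CKO alone, 97.6% of genes marked in all 3 inputs and 46.4% of genes marked in none. Of the 13142 genes with H3K4me3 the CKO input marked 40.2%, and Ctrl inputs 1 and 2 marked 10.8% and 5.08%. Of the 8745 genes without it they marked 4.76%, 1.38% and 0.469%. The share climbed with the height of the H3K4me3 peak. Over 4 groups of equal size, from the lowest to the highest H3K4me3 by summit fragments (medians of 19, 53, 81 and 113), the CKO input marked 20.3%, 33.4%, 48.2% and 58.9%. Ctrl input 1 marked 5.39%, 8.49%, 12.4% and 16.7%, and Ctrl input 2 marked 2.28%, 3.14%, 6.54% and 8.34%, so each library kept the same order. By H3K4me3 fold in place of fragments the CKO shares were 27.4%, 44.0%, 46.9% and 42.3%, and the highest group was not the most marked. Across the gene classes a CKO H3K9me2 promoter peak was present at 18.3% of genes in CKO alone, 41.6% of genes in all 3 inputs and 4.72% of genes in none.

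The targeted gene, Phf2 itself, had no promoter peak in any input. Its promoter is rich in CG (CpG ratio 1.14) and carried H3K4me3 in Ctrl at a fold of 7.81 with 81 summit fragments. A peak list does not show a deleted exon, so the knockout is not checked by these values.

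Of the promoter peaks common to the 3 inputs, those of Brox and Vmn2r29 stood well above the rest. The peak nearest Brox, an endosomal protein gene, at chr1:183299184-183299604, had folds of 22.0 in CKO against 19.6 and 20.2 in Ctrl inputs 1 and 2, on 99, 69 and 73 fragments. It lies in the body of the neighbouring gene Aida and its summit is over 2 kb upstream of Brox. The region was also called with H3K9me2, at folds of 22.0 in CKO and 21.0 in Ctrl. Vmn2r29, a vomeronasal receptor gene, had folds of 18.3 in CKO against 19.2 and 13.8 in Ctrl, with the CKO summit 202 bp downstream of the start. Its promoter also held peaks of H3K4me3 (fold 16.2) and of H3K9me2 (17.2 in CKO and 12.4 in Ctrl), so it was called in every list. Vomeronasal receptors are a multigene family, so the member these fragments come from is uncertain.

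Further down, CKO values were mostly but not always the higher ones. Tmem267 had folds of 10.3 in CKO against 6.54 and 7.22 in Ctrl, on 29, 11 and 17 fragments. Lta4h, which encodes leukotriene A4 hydrolase, had 9.68 in CKO against 7.68 and 4.52 in Ctrl, and Nup54, a nuclear pore gene, had 8.13 in CKO against 4.14 and 4.10. These 3 genes were higher in CKO than in either Ctrl input. Hjurp, a chaperone of the centromeric histone CENP-A, had 7.92 in CKO against 7.61 and 5.78 in Ctrl. The zinc finger gene Zfp978 had 9.40 in CKO against 9.65 and 6.45 in Ctrl, and a peak within 2 kb of Gm51573 and Gm51592 had 9.32 in CKO against 6.45 and 9.98 in Ctrl, so at these promoters the CKO value lay between the Ctrl values. Gm51591 (9.05 in CKO against 8.45 and 8.68) and LOC100504180 (8.95 against 7.64 and 8.13) are, like the previous pair, predicted genes with H3K9me2 promoter peaks in both genotypes.

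In the CKO input alone, the 15 highest promoter peaks belonged to 18 genes and included 3 without H3K4me3. They were Gtsf1, a factor of the piRNA pathway of germ cells (chr15:103430266-103430641, fold 10.5 on 14 fragments), Figla, a transcription factor of oocytes (chr6:86017027-86017401, 9.44 on 15), and Add2, which encodes beta-adducin of the membrane skeleton (9.44 on 15). Their summits lay 1, 1 and 7 bp from the annotated starts. The other 15 genes had H3K4me3 in Ctrl. Among them were 0610040J01Rik (9.57), Gpat4, an enzyme of glycerolipid synthesis (9.44), the neighbours Fpgt and Lrriq3 (9.25), Phldb2 (9.07), Erh with Slc39a9 (9.04), the glucose transporter gene Slc2a10 (8.84) and the stress gene Gadd45a (8.83 on 16 fragments). Fam185a with Ccdc146 (9.21), Thumpd3 (8.72), Cds2, an enzyme of phospholipid synthesis (8.71), and Htt, which encodes huntingtin (8.70), completed the list, and the next promoter stood at 8.56. Ctnna2, a catenin gene of neurons (fold 9.33), was the 1 gene of the 18 that also held H3K9me2 at the promoter, at folds of 7.23 in CKO and 5.09 in Ctrl. Being absent from the Ctrl inputs is what placed these genes here, so it is not a result about them.

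In the Ctrl inputs the promoters without a CKO peak reached lower folds. The highest was Brca2, a gene of recombinational repair, at 8.85 on 11 fragments in Ctrl input 1. It was followed in Ctrl input 2 by Eya1, a transcriptional coactivator of muscle progenitors (7.92), Appbp2 (7.88), Zkscan8 (7.76), the ubiquitin ligase subunit gene Skp1 (7.71), the endoplasmic reticulum chaperone gene Hspa5 (7.68), Lcor (7.58) and the nucleolin gene Ncl (7.30). Zfp365 (7.56) was in Ctrl input 1, and Uhrf1bp1l was the only 1 of the 10 called in both Ctrl inputs, at 7.36 and 4.28. All 10 carried H3K4me3, and 9 of them were thus absent from the other Ctrl input as well as from CKO.

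Input summits at promoters sat just downstream of the gene start in both genotypes. The median summit was 139 bp downstream in CKO (4197 peaks) against 138 and 136.5 bp in Ctrl (1127 and 508 peaks), and H3K4me3 summits had a median of 136 bp. The middle 50% of summits ran from -9 to 317 bp in CKO, against -21 to 306.5 and -25 to 320.5 bp in Ctrl. Summits were downstream of the start in 73.6% of CKO peaks and in 71.6% and 71.7% of Ctrl peaks, against 77.9% for H3K4me3. H3K9me2 summits near starts were closer to the start, at medians of 76 bp in CKO and 85 bp in Ctrl. The medians of the 3 inputs thus lay between 136.5 and 139 bp.

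**Figure D3:**
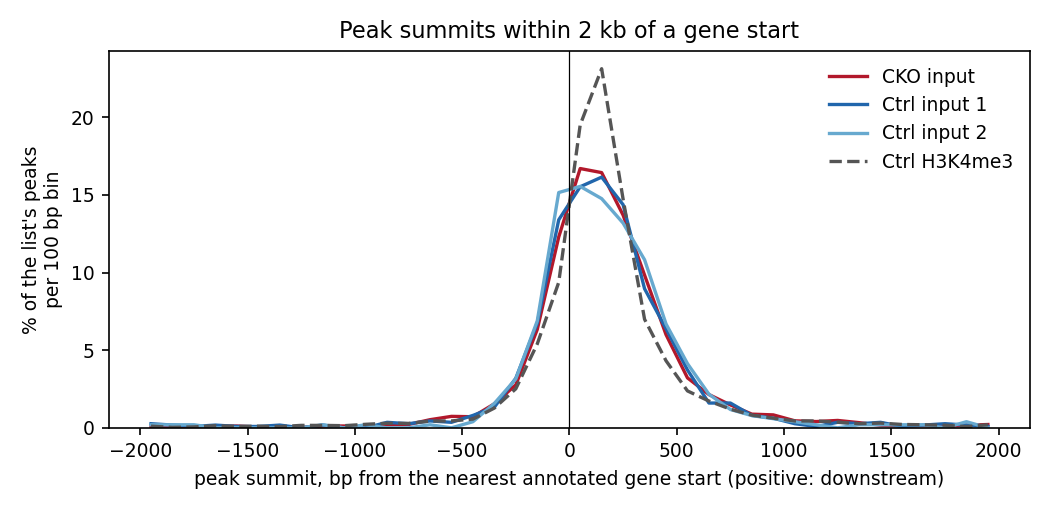
Distribution of peak summits around the nearest annotated gene start (horizontal axis, bp, positive downstream; vertical axis, percent of a list's peaks per 100 bp) for the CKO input, Ctrl inputs 1 and 2 and Ctrl H3K4me3. The 3 input curves lie over each other with medians of 139, 138 and 136.5 bp, and the H3K4me3 curve is sharper around 136 bp.

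Promoters with an input peak were rich in CG, and in the CKO input the share marked climbed with CG content whether or not H3K4me3 was present. The median CpG observed over expected ratio was 0.820 for genes in the CKO input, 0.817 and 0.852 for those in Ctrl inputs 1 and 2, 0.607 over all 17492 promoters with sequence and 0.405 for genes in no input. Genes in CKO alone had a median of 0.816 and genes in a Ctrl input but not in CKO 0.797, so these medians lay close together. H3K4me3 genes in no input had 0.763. Among promoters without H3K4me3, the CKO input marked 1.59% of those with a ratio under 0.2 and 10.7% of those from 0.4 to 0.6. It marked 19% of those from 0.6 to 0.8 and 26.5% of those from 0.8 to 1.0 (31 of 117, 18.8 to 35.5). At 1.0 and more the CKO share was 41.9% (13 of 31, 24.5 to 60.9). Ctrl input 1 had 0.419%, 3.27%, 4.82% and 11.1% in the same 4 bins and Ctrl input 2 0.0279%, 0.754%, 3.01% and 3.42%. At 1.0 and more they had 1 of 31 (3.23%) and 0 of 31, so the Ctrl shares did not climb into the last bin, where promoters were few. Among promoters with H3K4me3 the CKO shares ran from 16.8% at ratios under 0.2 to 50.4% at 1.0 and more. GC content moved with these shares, with a median of 65.3% for genes in the CKO input, 65% and 67.3% for those in Ctrl inputs 1 and 2 and 53.3% for genes in no input, and its part in them was not tested.

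**Figure D4:**
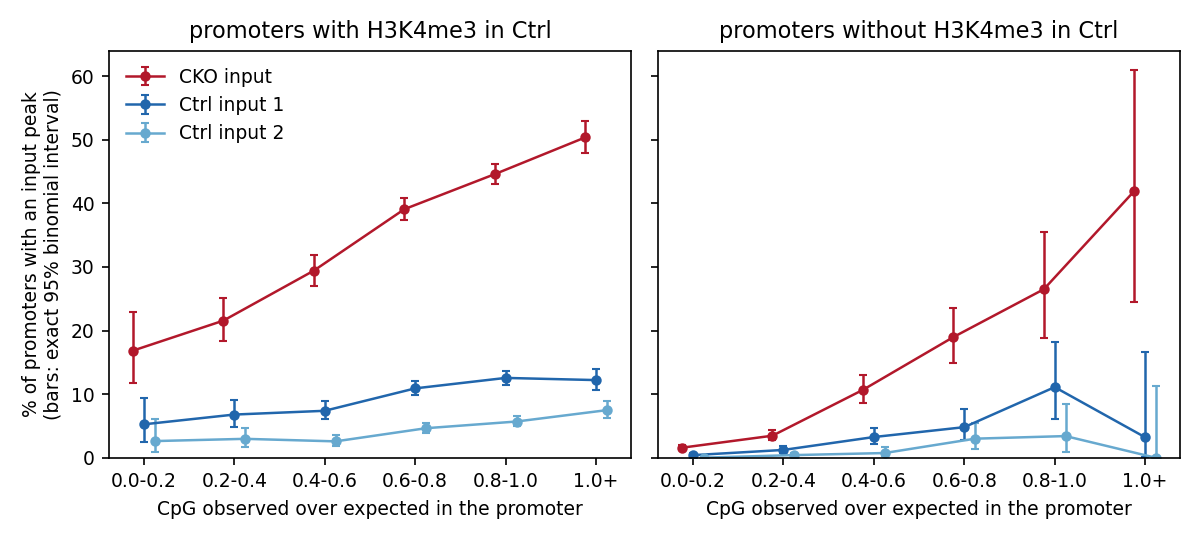
Share of promoters with an input peak (vertical axis, percent) by the CpG observed over expected ratio of the promoter (horizontal axis), for promoters with H3K4me3 in Ctrl (left) and without (right); points are the CKO input and Ctrl inputs 1 and 2, bars exact 95% binomial intervals. With H3K4me3 the CKO share runs from 16.8% to 50.4%, and without it from 1.59% to 41.9% (31 promoters in the last bin).

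Among genes that make up the contractile apparatus of muscle, only the list used in all fibre types lay far below all genes in CKO. Of 15 sarcomere genes used in all fibre types none had a promoter peak in any of the 3 inputs, although 8 had H3K4me3 in Ctrl. Of 15 fast-fibre genes the CKO input marked 3, against 1 and 0 in Ctrl inputs 1 and 2. They were Pvalb, a calcium buffer of fast fibres (fold 7.78), Tpm1, fast tropomyosin (5.04 in CKO and 3.78 in Ctrl input 1), and Atp2a1, the fast-fibre calcium pump (3.84, with its summit 1004 bp upstream). Of 12 slow-fibre genes the CKO input marked Atp2a2 (6.11) and Tpm3 (4.80) and the Ctrl inputs none. These shares, 20% and 16.7% in CKO, lay below the 26% of all genes, a small gap for lists of 15 and 12 genes. The median fold of the marked fast-fibre genes, 5.04, was near the 5.19 of all marked genes. Most genes of the contractile apparatus were in no input list, as were 70.3% of all genes. Calcium handling genes (3 of 13 in CKO against 1 and 1 in Ctrl), neuromuscular junction genes (3 of 14 against 0 and 0, among them the acetylcholine receptor subunit gene Chrnb1 at 5.05) and glycolysis genes (3 of 15 against 0 and 0, among them Ldha at 6.01 and Pkm at 3.80, although all 15 had H3K4me3) were within 1 gene of the share of all genes. Among genes with H3K4me3 their CKO shares were 27.3%, 37.5% and 20%, below the 40.2% of all such genes.

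Regulatory genes of muscle were counted in the same way, and their counts in CKO lay above the 26% of all genes to different degrees. Counting only genes with H3K4me3, of which the CKO input marked 40.2% over all genes, this held for some lists only. The myogenic (35.7%) and growth (37.5%) lists then lay below that share, and the oxidative (42.9%) and atrophy (60%) lists above it. On the same base the CKO input marked 3 of 9 fast-fibre, 2 of 3 slow-fibre and 0 of 8 all-fibre sarcomere genes. Part of the gap to the fast-fibre and slow-fibre lists thus went, but not that to the all-fibre list. No test between lists was made. Of 17 genes of atrophy and autophagy the CKO input marked 9 (52.9%), against 3 and 0 in Ctrl inputs 1 and 2. Its highest folds were those of the translation repressor gene Eif4ebp1 (7.18 in CKO and 5.04 in Ctrl input 1), the mitophagy receptor gene Bnip3 (6.70 and 4.28), Becn1 (6.45) and Ulk1 (6.01), and it held the atrophy regulators Foxo1 and Foxo3 too. Of 15 regulators of oxidative metabolism it marked 6, against 3 and 2. Tfam, the mitochondrial transcription factor gene, was called in all 3 inputs at nearly equal folds, 5.62 in CKO against 5.78 and 5.80 in Ctrl. Gabpa (7.73) shares its peak with the neighbouring Atp5j, and Sirt3 (7.42 in CKO and 4.99 in Ctrl input 1) shares its peak with Psmd13. Sirt1 (4.48, Ctrl input 1) and Esrrg (3.87, Ctrl input 2) were marked in Ctrl and not in CKO.

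Of 16 growth signalling genes the CKO input marked 6, against 2 and 1 in Ctrl inputs 1 and 2, with Rps6kb1, the S6 kinase gene, at 6.91. Insr, the insulin receptor gene, was called in all 3, at 6.84 in CKO against 4.33 and 3.85 in Ctrl, and Akt2 in Ctrl input 1 alone, at 4.94. Of 16 myogenic regulators it marked 5 against 0 and 2. Tead4 had 5.27 in CKO and 4.32 in Ctrl input 2, and the late myogenic factor gene Myog had 4.10 on 6 fragments in CKO. Of 16 circadian clock genes it marked 7 against 0 and 2, with Clock at 6.53 and its partner gene Arntl at 5.60 in CKO and 4.79 in Ctrl input 2. The immediate early genes reached 6 of 21 in CKO (28.6%), against 1 and 0, close to all genes, and Egr1 was marked in Ctrl input 1 and not in CKO.

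The list with the highest CKO share was that of H3K9 methylation enzymes and readers, which write, erase or bind the mark that PHF2 is described to remove. All 22 had H3K4me3 in Ctrl, and the CKO input marked 15 (68.2%), against 2 and 1 in Ctrl inputs 1 and 2. Over all genes with H3K4me3 the CKO input marked 40.2%, and Ctrl inputs 1 and 2 marked 10.8% and 5.08%. Marked genes included the HP1 genes Cbx5 (7.99), Cbx3 (5.35) and Cbx1, the methyltransferase genes Suv39h2 (6.01), Suv39h1, Setdb1, Setdb2 and Ehmt1, and the demethylase genes Kdm3a (6.01), Kdm1a, Kdm4c and Kdm4d, none of them in a Ctrl input. The other 3 were Jmjd1c and Kdm3b, also in Ctrl input 1, and Kdm7a, also in Ctrl input 2. Of the 15 genes, 12 were thus in no Ctrl input. So were 4426 of all 5698 genes marked in CKO, and this was not particular to the list. The median fold of the 15 was 5.07, under the 5.19 of all marked genes. Among genes with H3K4me3 the CKO input also marked 3 of 4 Schwann cell markers and 2 of 3 slow-fibre genes. A share of this height was thus not particular to the list, though those lists are short. With lists of 1309 peaks the counts for the 22 genes were 1, 1 and 1, so the high CKO share rested on peaks outside the most significant ones. The same held over all genes, since 687 of the 5698 genes marked in CKO remained, so the drop is not particular to this list. At that length CKO and Ctrl inputs 1 and 2 marked 3.14%, 2.74% and 3.23% of all genes. The counts for atrophy and autophagy were then 2, 1 and 0, for oxidative regulators 2, 1 and 2, and for the clock genes 1, 0 and 2. In all 32 lists the share in the longer CKO list was at least as high as that in each Ctrl input, which at equal length held for 24. In 16 of the 32 it was above that of all genes, which at equal length held for 13.

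**Figure D5:**
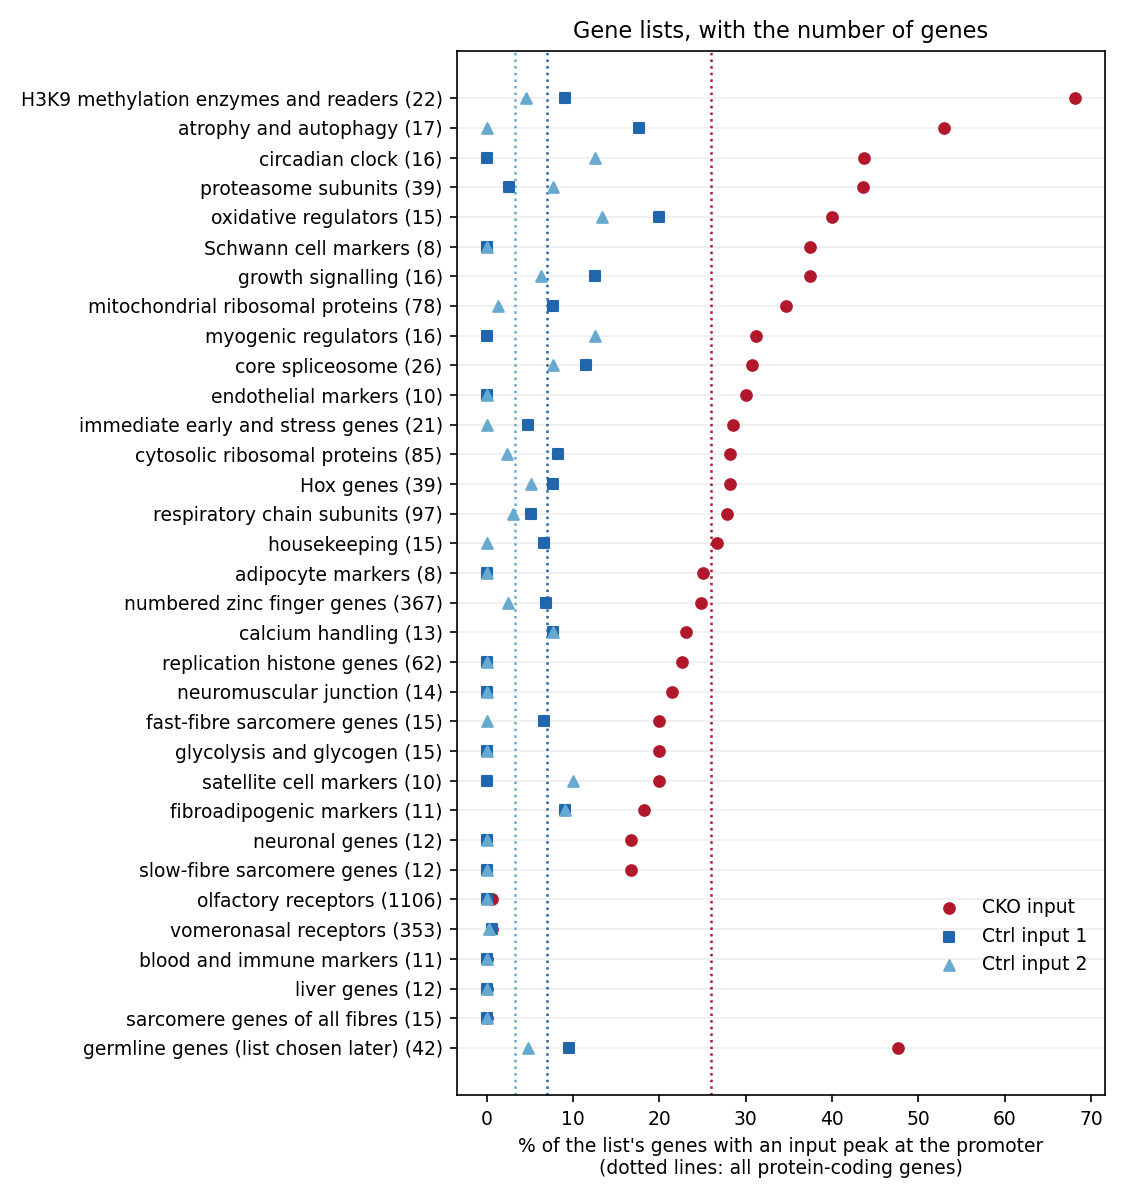
Share of each list's genes with an input peak at the promoter (horizontal axis, percent) for the CKO input (circles), Ctrl input 1 (squares) and Ctrl input 2 (triangles), with list sizes in parentheses and dotted lines for all genes. Lists run from H3K9 methylation enzymes and readers, at 68.2% in CKO, down to lists at 0, and the germline list, drawn last, has 47.6% in CKO.

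Large families of housekeeping genes stayed near the 26% of all genes in CKO, but most fell below the share of all genes with H3K4me3. Cytosolic ribosomal protein genes had 24 of 85 in CKO (28.2%), against 7 and 2 in Ctrl inputs 1 and 2, respiratory chain subunits 27 of 97 (27.8%) against 5 and 3, and numbered zinc finger genes 91 of 367 (24.8%) against 25 and 9. Mitochondrial ribosomal proteins (27 of 78, 34.6%, against 6 and 1) and proteasome subunits (17 of 39, 43.6%, against 1 and 3) had more in CKO. Among genes with H3K4me3 the CKO input marked 40.2% over all genes. On that base it marked 28.4% of cytosolic ribosomal, 31.0% of respiratory chain, 27.0% of zinc finger and 35.5% of mitochondrial ribosomal genes, and 48.6% of proteasome genes. At equal length the counts were 5, 1 and 1 for the mitochondrial ribosomal proteins and 1, 0 and 3 for the proteasome, where Ctrl input 2 then had the most. Replication histone genes had 14 of 62 in CKO and none in either Ctrl input. Histone, zinc finger and receptor genes come in near-identical copies, so the member is uncertain. Olfactory receptor genes, which muscle does not use, had 7 of 1106 in CKO (0.633%) and none in Ctrl, and vomeronasal receptors 2 of 353 in CKO against 2 and 1 in Ctrl.

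Markers of other cell types in muscle ranged from none marked to above the 26% of all genes in CKO, on lists of 8 to 12 genes. Blood and immune markers had 0 of 11 in all 3 inputs and no H3K4me3 peak either, and liver genes 0 of 12 in all 3 inputs. Endothelial markers had 3 of 10 (30%) in CKO (Flt1 at 6.14, Cdh5 and Cldn5) against 0 and 0 in Ctrl, Schwann cell markers 3 of 8 (37.5%; among them Egr2 at 4.04 and Mbp at 3.96) against 0 and 0, and adipocyte markers 2 of 8 (25%; Pparg at 7.10 and Lep) against 0 and 0. Cdh5 had no start in the promoter table and was counted for a peak outside 1 of its gene ends. It had no H3K4me3 peak, so this peak may not lie at its promoter. Satellite cell markers had 2 of 10 (Sdc4 at 4.88 and Pax7 at 3.31) against 0 and 1, fibroadipogenic markers 2 of 11 (Fbn1 at 5.14 in CKO and 4.90 in Ctrl input 2, and Gsn) against 1 and 1, and neuronal genes 2 of 12 (Snap25 at 7.10 and Map2) against 0 and 0. In whole muscle, the share of cells that release fragments at a site and the amount released per cell cannot be told apart.

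Several input promoters without H3K4me3 belonged to germline genes. The list of 42 was put together after Gtsf1 and Figla had been seen among the highest CKO peaks, so its values are a description. The CKO input marked 20 of the 42 (47.6%), against 4 and 2 in Ctrl inputs 1 and 2, and only 7 of the 42 had H3K4me3. Of the 35 without H3K4me3 the CKO input marked 16 (45.7%), against 4 (11.4%) and 2 (5.71%) in Ctrl inputs 1 and 2, where 4.76%, 1.38% and 0.469% of all genes without H3K4me3 were marked. Leaving out the 2 genes that had prompted the list, the CKO input marked 14 of 33 (42.4%). In each of the 3 inputs the germline share was thus above that of all promoters without H3K4me3.

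Of the 20 germline genes marked in CKO, 15 were in no Ctrl input. So were 4426 of all 5698 genes marked in CKO, and this was not particular to germline genes. Apart from Gtsf1 and Figla, the CKO peaks at germline promoters (18 genes) had folds from 3.49 (Tdrd5) to 7.47 (Ddx4). The highest were Ddx4, an RNA helicase of germ cells (7.47 on 11 fragments), Mael of the piRNA pathway (6.70), the meiotic chromosome axis gene Hormad1 (6.64), Hormad2 (5.84) and Sycp2 of the synaptonemal complex (5.75). Mael was called in all 3 inputs, at 6.70 in CKO against 4.48 and 3.76 in Ctrl, and Sycp2 in CKO and Ctrl input 2 (4.23). Slc25a31, a testis ADP/ATP carrier, had 4.98 in CKO and 6.42 in Ctrl input 1, Stk31 4.36 and 5.35, and Tex12 4.69 and 4.68, so the Ctrl value was the higher at Slc25a31 and Stk31 and nearly the same at Tex12. The germline promoters without H3K4me3 had a median CpG ratio of 0.674 (31 with sequence), 0.759 for those in the CKO input and 0.625 for those in no input. Promoters without H3K4me3 at ratios from 0.6 to 0.8 were marked by the CKO input in 19% of cases. H3K9me2 promoter peaks were present at 3 of the 42 in CKO and 1 in Ctrl.

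The 416 genes with a CKO input peak and no H3K4me3 peak, germline genes included, had peaks of about the same height as the others. Their median fold was 5.11, against 5.21 for marked genes with H3K4me3, and 17.1% of them were in a Ctrl input against 22.7%. A CKO H3K9me2 promoter peak was present at 58 of them (13.9%) and a Ctrl H3K9me2 peak at 17. Their promoters had a median CpG ratio of 0.480, between the 0.185 of genes with neither H3K4me3 nor an input peak and the 0.836 of genes with both H3K4me3 and a CKO peak.

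The regions named first were chosen as the highest by CKO fold among those called in every input, so being common to the genotypes is not a result. They lay in gene bodies or intergenic sequence. The region nearest Rpusd4 had the highest fold of each input list, at 32.8 in CKO against 30.9 and 32.1 in Ctrl. The region at chr9:35305221-35305597, 29.3 kb from Rpusd4, rested on 18855 fragments in CKO against 16270 and 13794 in Ctrl. It was also called with H3K4me3 (fold 30.8) and with H3K9me2 (30.3 in CKO and 27.7 in Ctrl). The next regions had fewer, with 315 in CKO against 200 and 174 in Ctrl at chr3:5860361-5860825, 281.8 kb from Pex2, and 447 against 248 and 228 in the body of Zc3h7a. Both were called in each antibody list too, so these sites are not particular to the inputs. Among peaks in CKO alone, the highest was chosen after values were seen. It lay at chr16:17222217-17222517, 8.24 kb from Rimbp3, with a fold of 25.6 on 129 fragments, and overlapped no peak of the other 5 lists, the CKO H3K9me2 list included. The next CKO-alone region, at chr16:3114940-3115520, had 15.5 on 32 fragments and was also in both H3K9me2 lists, at folds of 16.1 in CKO and 9.40 in Ctrl, so in Ctrl it was called in the H3K9me2 library.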

How the data were processed

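CUT&RUN peak lists of 3 input libraries (1 CKO, 2 Ctrl) were analysed, with 3 antibody lists as readouts, and samples were grouped by title and genotype label. Alignment with Bowtie2 to mm10 and peak calling with MACS2 are given per the submitters' processing notes, with versions not given in the sources used here. Libraries were made with a CUT&RUN kit and the NEBNext Ultra II kit, per the labels' protocols. Per peak, the authors deposited its position and summit offset, a score, a fold (summit over local background, a ratio with 1 added to each) and the −log10 of its p-value and q-value. The deposited score is 10 times −log10 q rounded down (10929 of 10931 CKO input peaks) and was not used. The deposited lists end near q of 0.05.

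From fold and p, whole summit fragments were recovered for 100% of peaks, with p matched within 0.1%; local background at its lowest gave relative coverage. Overlap and recovery were tested on simulated data. Genes, starts and promoter sequences came from RefSeq tables of GRCm38.p6. CpG observed over expected was computed over 300 bases. Intervals are Clopper-Pearson at 95% and cover counting error only: peaks are not replicate animals. Members and lists were chosen with earlier results of these data known. Named genes were Phf2, the 10 highest regions and promoters in all 3 inputs, the 15 highest promoters in CKO alone, the 10 highest in Ctrl alone, and up to 4 per list (2 for Ctrl alone); exceptions are stated as chosen after values were seen, members of short lists are also named, and some genes the rule would name are not reported here. Alternatives were peaks with q of 1e-05 or less, equal-length lists, other overlap rules, windows of 1 and 5 kb, either gene end, all sequences, peaks merged within 1 kb and leaving out either Ctrl input. The symbols of replication histone genes were updated to this annotation after the files were seen. Values were computed with scipy 1.17.1, pandas 2.3.3 and numpy 2.4.6 in Python 3.11.15 and drawn with matplotlib 3.10.9.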

Additional observations from a re-analysis of the deposited data

Results flagged for a closer look

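Peaks outside chromosomes 1 to 19, X and Y entered no comparison. There were 66 in the CKO input against 46 and 38 in Ctrl inputs 1 and 2, above the count in either Ctrl input, which is what marks this result. As a share of the list they were fewer in CKO, at 0.600% against 1.48% and 2.82%. Mitochondrial peaks numbered 2 in CKO against 1 and 4 in Ctrl.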

How the results depend on the processing

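The ratio of CKO peaks to the mean of both Ctrl inputs was 4.99 and stayed above 1 under each alternative: 3.56 to 8.35 without either Ctrl input, 7.73 at q of 1e-05 or less, 4.93 with all sequences and 4.98 with merged peaks. The log2 fold ratio at shared regions (0.10) stayed between 0.08 and 0.12. Of CKO peaks, 16.7% were in a Ctrl input; the share was 5.85% to 12.9% without either Ctrl input, 8.26% at q of 1e-05 or less, 23.1% with lists of equal length, 15.1% with overlap of 50% of the shorter peak and 17.9% within 1 kb. Genes with a CKO promoter peak (5698) numbered 1029 at q of 1e-05 or less and 687 at equal length, and those in CKO alone (4426) 996 and 571, while 1 and 5 kb windows and either gene end kept both within 1.5 times. The gene end share (46.9%) was 48.3% for peaks at or above the median fold, 41.8% with 1 kb and 52.2% with 5 kb. The H3K4me3 share of CKO-alone peaks (47.3%) was 48.2% to 48.9% without either Ctrl input, 52.8% at q of 1e-05 or less and 52.5% at equal length. The median CpG ratio (0.820) was 0.794 at equal length. Fewer peaks by construction lower the counts of genes; the cause of the other shifts was not tested. Leaving out Ctrl input 1, the longer Ctrl list, moved the overlap share most. No paired analysis was possible because the single CKO input carries no replicate number. With summits of 4 to 7 fragments in most Ctrl peaks, absence from a list does not show absence of released fragments.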

Other observations

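Non-coding genes were overlapped by input peaks less often than protein-coding genes. Of the latter the CKO input overlapped 30.8%, against 8.79% and 4.00% in Ctrl inputs 1 and 2. The shares are per gene and were not scaled for gene length, so they do not compare the classes at equal length. Of 12727 lncRNA genes the CKO input overlapped 1033 (8.12%), against 324 (2.55%) and 141 (1.11%) in Ctrl inputs 1 and 2, and of 1228 miRNA genes 28, against 6 and 2. Of 408 tRNA genes it overlapped 10, against 4 and 4, and of 1004 snRNA genes 3, against 0 and 0. Of 9944 pseudogenes it overlapped 209 (2.10%), against 69 and 46, while the CKO H3K9me2 list overlapped 440 (4.42%), against 14.1% of protein-coding genes. tRNA, snRNA and pseudogenes come in near-identical copies, so the copy is uncertain.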
